A study of Homo sapiens with 6 samples.

Results

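Cholesterol is built from acetyl-CoA through a chain of enzymes, and its level in the cell is held by a feedback loop on the transcription factors called SREBPs. The genes described here are 31 members of that system, listed by name for their known role in it: 20 enzymes of cholesterol synthesis, 5 genes of SREBP control and 6 genes of cholesterol uptake, transport and storage. They are 31 of the 23593 genes measured on the arrays, and 55 of the 42948 array features that carry a gene name. The list does not hold every gene of the pathway, and the enzymes and receptors outside it were not analysed here.

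In the pathway, acetyl-CoA is condensed to HMG-CoA, reduced to mevalonate, turned into small isoprenoid units and joined to squalene, which is closed to lanosterol and trimmed to cholesterol. SREBPs are made as precursors in the membrane of the endoplasmic reticulum, where INSIG proteins hold the SREBP escort SCAP while sterols are plentiful. When sterols run low, SCAP carries the precursor to the Golgi, proteases release its active part, and that part switches on the synthesis enzymes, usually beside the factors NF-Y and SP1. The liver is a main site of cholesterol synthesis in the body.

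The study measured total RNA of HCC-LM3, an established human hepatocellular carcinoma line. Its 2 groups were cells infected for 1 week with a lentivirus carrying an shRNA against ASPP2, the p53-binding protein encoded by TP53BP2 (shASPP2, n = 3), and cells infected with a lentivirus carrying a control shRNA (shNon, n = 3). The 3 samples of a group came from separate cultures, and both groups had been through lentiviral infection. Each RNA was labelled with Cy3 and hybridised to its own NimbleGen array, and values are RMA intensities on a linear scale unless a log2 difference is named. The labels name 1 control shRNA and 1 shRNA against ASPP2, so an effect of the shRNA other than on its target cannot be told apart from the loss of ASPP2 in these data. The number of arrays limits the precision of every value.

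TP53BP2, the targeted gene, had intensities of 228, 216 and 147 in shASPP2 cells, against 332, 488 and 452 in shNon cells. Each shASPP2 value was under every shNon value, with a log2 difference of -1.11 (SE 0.249, limma adjusted p = 0.204, and 0.0256 with a variance that follows the mean level). The array has 2 features for TP53BP2, and these values are of the brighter one. Over all genes, 10 were higher and 14 lower in shASPP2 cells at a limma adjusted p under 0.05, and with the median of each array set equal the split was 9 higher and 20 lower. Random-sequence probes, which match no transcript, read 30.4 to 30.8 on the shASPP2 arrays and 31.8 to 33.3 on the shNon arrays. Of 7 markers of a liver line, KRT8, KRT18 and TF were far above that level in both groups, ALB stood at 2.23 times it in shASPP2 cells and 2.66 times it in shNon cells, AFP at 2.30 times it in shASPP2 cells and 1.34 times it in shNon cells, and AHSG and APOA2 lay near it. The summed intensity of the 7 was 20595 to 24387 in shASPP2 cells and 15919 to 17332 in shNon cells, most of it from KRT8 and KRT18. These 2 were higher without overlap, against 9.30% of all genes. Their log2 differences were 0.71 for KRT8 (limma adjusted p = 0.244, and 0.00207 with a variance that follows the mean level) and 0.25 for KRT18. Another 3 were lower without overlap, against 9.52% of all genes: TF at -0.39, ALB at -0.34 and APOA2 at -0.71. The median log2 difference of the 7 was -0.03. Of 5 endothelial markers, PECAM1 exceeded 2 times the random-probe level in both groups. CDH5 stood at 1.38 times that level in shASPP2 cells and 2.49 times it in shNon cells. The summed intensity of the 5 was 987 to 1220 in shASPP2 cells against 2025 to 2137 in shNon cells. Most of it was PECAM1, with means of 968 in shASPP2 cells and 1866 in shNon cells. PECAM1 was lower without overlap, with a log2 difference of -0.96 (limma adjusted p = 0.157, and 0.00125 with a variance that follows the mean level). The other 4 overlapped between groups. The sums of 5 fibroblast markers were 512 to 682 in shASPP2 cells and 418 to 651 in shNon cells, and those of 6 leukocyte markers were 4271 to 4836 in shASPP2 cells and 3442 to 4501 in shNon cells. Averaged over the arrays, 4 of the 5 fibroblast markers exceeded 2 times the random-probe level, and all 5 overlapped between groups. LUM was the highest, at 8.23 times that level in shASPP2 cells and 5.62 times it in shNon cells. Most of the leukocyte sums was CD68, with means of 3666 in shASPP2 cells and 3043 in shNon cells and overlapping groups. CD79A, also overlapping, stood at 20.4 times the random-probe level in shASPP2 cells and 21.3 times it in shNon cells. Whether these marker differences have a part in the results below was not tested. In bulk RNA, fewer cells with a transcript and less of it per cell cannot be told apart.

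Most genes of cholesterol synthesis were measured at higher levels after ASPP2 knockdown. On 20 of the 31 members all 3 shASPP2 arrays exceeded all 3 shNon arrays, 64.5% of the members against 9.30% of all genes. The members were chosen with earlier results of these data known, so this share describes the list and is not a test of it. The opposite order, all shASPP2 arrays below all shNon arrays, was found for 2 members, against 9.52% of all genes. The median log2 difference of the 31 members was 0.51, against 0.01 for all genes, and 23 members had a positive and 8 a negative difference. Among genes above the median level of the array, 19 of 28 members had this higher, non-overlapping order, against 12.9% of all such genes.

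By the limma test adjusted over all genes, 1 member passed in the higher direction, INSIG1, against 0.0424% of all genes, and 0 members passed in the lower direction, against 0.0593%. At an unadjusted limma p under 0.05, 17 members were higher and 0 lower, against 5.54% and 5.93% of all genes. With a variance that follows the mean level and is robust to odd genes, 15 members passed as higher and 0 as lower, against 0.996% and 1.15% of all genes. Unless another fit is named, adjusted p-values below are those of limma with a common prior variance, and "passed with the trended variance" refers to the second fit. Counts by pathway step are to be read against these shares. For groups without overlap the shares are 9.30% of all genes higher and 9.52% lower.

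**Figure D1:**
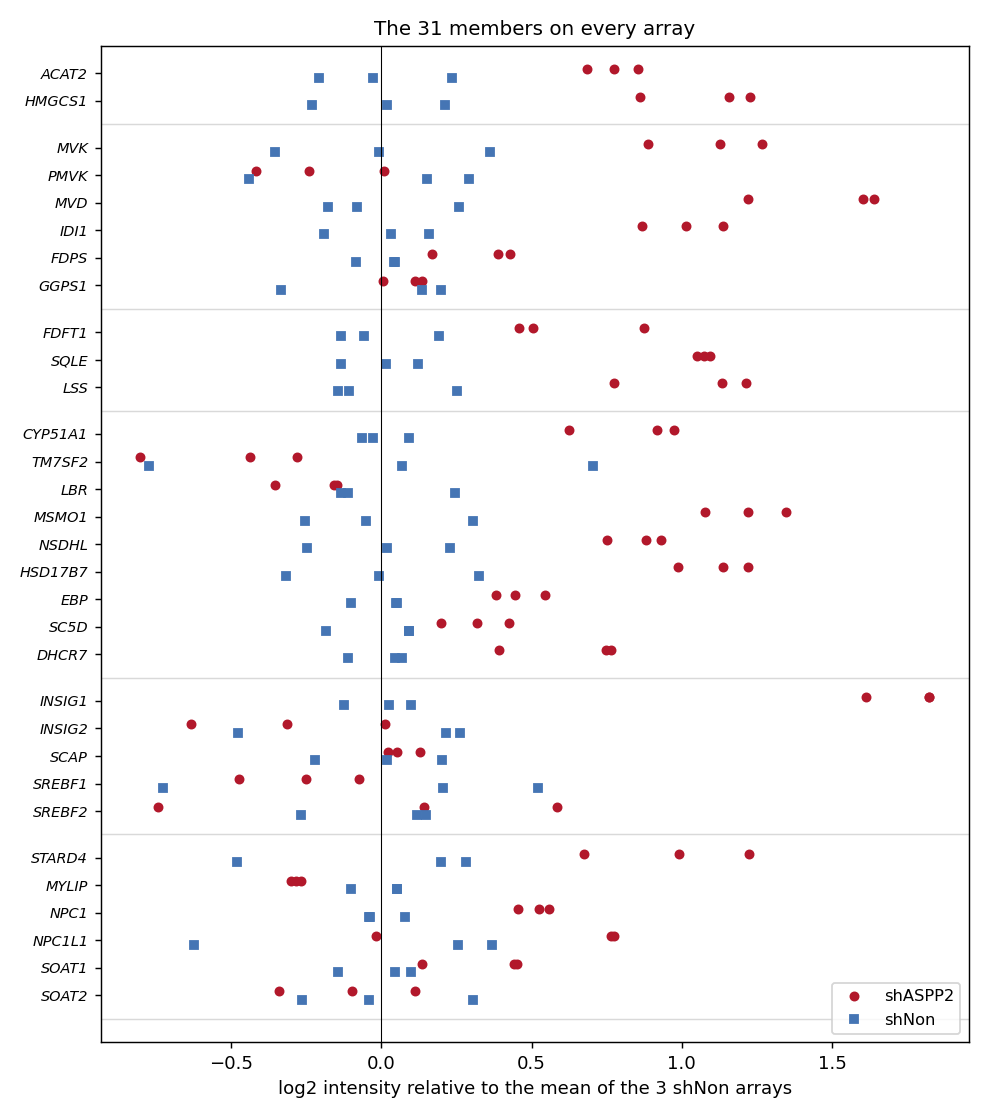
Log2 intensity of each of the 31 members on each array relative to the mean of the 3 shNon arrays (horizontal axis), with circles for shASPP2 arrays, squares for shNon arrays and genes in pathway order from top to bottom. For 20 members all circles lie to the right of all squares, and for LBR and MYLIP all lie to the left.

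The same values can be set out array by array, which restates the counts above and is not a further test. The median deviation of the members from their own means was 0.20, 0.47 and 0.28 on the log2 scale on the shASPP2 arrays, against -0.41, -0.27 and -0.23 on the shNon arrays. The same median over all genes stayed between -0.04 and 0.03 on every array. No array of either group lay on the other group's side.

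INSIG1, the sterol-sensing anchor that retains SCAP and whose own gene is a classic SREBP target, had the largest difference of the 31. Its intensity was 1373, 1188 and 1373 in shASPP2 cells, against 356, 395 and 415 in shNon cells. The lowest shASPP2 array was well over the highest shNon array, and the mean was 1311 ± 107 in shASPP2 cells and 389 ± 30.1 in shNon cells (SD, n = 3 each). INSIG1 thus rose 3.37-fold, a log2 difference of 1.75 (SE 0.169, 95% interval 1.36 to 2.15, limma adjusted p = 0.0296). Its transcript spans chr7:154720475-154732879 in hg18, the build of the array design. The call did not survive leaving out any 1 array, after which the limma adjusted p lay between 0.0908 and 0.264 while the log2 difference lay between 1.69 and 1.82. A second INSIG1 feature read 858, 993 and 732 in shASPP2 cells, against 409, 285 and 332 in shNon cells, a log2 difference of 1.34 (limma adjusted p over features = 0.112).

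The groups overlapped for each of the other 4 genes of SREBP control. INSIG2, the second anchor of SCAP, had intensities of 544, 435 and 349 in shASPP2 cells, against 388, 649 and 627 in shNon cells (log2 difference -0.31, 95% interval -0.96 to 0.33). SCAP, the escort itself, differed by 0.07 on the log2 scale (95% interval -0.36 to 0.49). The precursor genes varied widely within the groups. SREBF2, which encodes the SREBP chiefly tied to cholesterol genes, read 156, 392 and 288 in shASPP2 cells, against 290, 217 and 284 in shNon cells. SREBF1, which encodes the forms tied mainly to fatty acid genes, read 131, 173 and 153 in shASPP2 cells, against 110, 261 and 210 in shNon cells. Their log2 differences were -0.01 (95% interval -0.82 to 0.81) for SREBF2 and -0.27 (95% interval -1.05 to 0.52) for SREBF1. The arrays measure the mRNA of the precursors and not their cleavage.

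**Figure D2:**
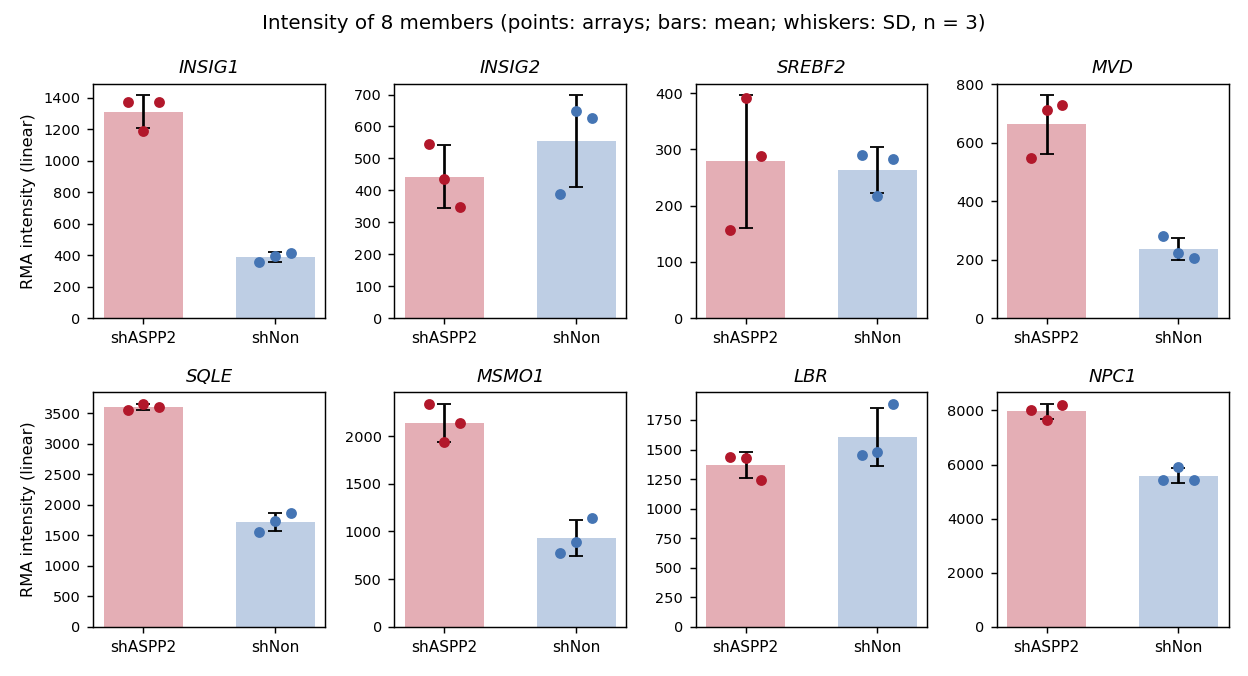
RMA intensity (linear vertical axis) of 8 members, with shASPP2 left of shNon in each panel, points for the 3 arrays of a group, bars for means and whiskers for the SD. INSIG1, MVD, SQLE, MSMO1 and NPC1 are higher in shASPP2 cells without overlap, LBR is lower without overlap, and INSIG2 and SREBF2 overlap.

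At the entry of the pathway both members were higher. ACAT2, the thiolase that joins acetyl-CoA units in the cytosol, averaged 1211 ± 70.8 in shASPP2 cells and 715 ± 112 in shNon cells (SD, n = 3 each), a log2 difference of 0.77 (SE 0.184, limma adjusted p = 0.223). HMGCS1, which makes HMG-CoA, had 1518, 1593 and 1236 in shASPP2 cells, against 580, 689 and 789 in shNon cells. Neither gene overlapped between groups, and the log2 difference of HMGCS1 was 1.08 (SE 0.199, limma adjusted p = 0.149). Both passed with the trended variance (limma adjusted p = 0.0146 for ACAT2 and 0.00107 for HMGCS1). A second HMGCS1 feature differed by 1.57 on the log2 scale, and it passed among all features at a limma adjusted p of 0.0486.

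Of the 6 enzymes from mevalonate to the isoprenoid units, 4 were higher without overlap. MVD, which decarboxylates the mevalonate product to isopentenyl diphosphate, had the largest difference among the enzymes. It read 547, 713 and 730 in shASPP2 cells, against 280, 222 and 207 in shNon cells, and the groups were far apart. The fold was 2.81 and the log2 difference 1.49 (SE 0.208, 95% interval 1.00 to 1.98, limma adjusted p = 0.0960, and 0.000623 with the trended variance). MVD lies at chr16:87245848-87256996 in hg18. MVK, the mevalonate kinase at the head of this stretch, had 1070, 1391 and 1262 in shASPP2 cells, against 452, 744 and 575 in shNon cells. IDI1, the isomerase that balances both isoprenoid units, had 3339, 3067 and 2771 in shASPP2 cells, against 1552, 1327 and 1695 in shNon cells. The groups were apart for both genes, with log2 differences of 1.09 for MVK and 1.01 for IDI1, and both passed with the trended variance (limma adjusted p = 0.00278 and 0.000407).

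FDPS, which joins isoprenoid units to farnesyl diphosphate, had a small difference. It read 6716, 7807 and 8033 in shASPP2 cells, against 6141, 5625 and 6156 in shNon cells, apart on every array but by 0.33 on the log2 scale (95% interval -0.07 to 0.72), and it passed neither fit. PMVK, the kinase between MVK and MVD in the chain, overlapped between groups, with 3859, 3414 and 4581 in shASPP2 cells against 5573, 5059 and 3353 in shNon cells. Its log2 difference was -0.22 (95% interval -0.79 to 0.36). GGPS1, which diverts farnesyl diphosphate to geranylgeranyl diphosphate for protein prenylation and other branches, differed by 0.08 (95% interval -0.39 to 0.56).

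The 3 enzymes from farnesyl diphosphate to lanosterol were all higher, with no overlap, and all passed with the trended variance. SQLE, squalene epoxidase, a rate-limiting step after the mevalonate stage, had 3550, 3654 and 3605 in shASPP2 cells, against 1560, 1730 and 1864 in shNon cells. The shASPP2 arrays were nearly equal, and the log2 difference was 1.07 (SE 0.163, limma adjusted p = 0.103, and 8.76e-05 with the trended variance). LSS, which closes the epoxide to lanosterol, had 586, 795 and 752 in shASPP2 cells, against 310, 408 and 318 in shNon cells, a log2 difference of 1.04. FDFT1, squalene synthase, had 4723, 6302 and 4877 in shASPP2 cells, against 3303, 3134 and 3925 in shNon cells. Its 4 features gave log2 differences between 0.51 and 0.83, each without overlap.

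From lanosterol to cholesterol, 7 of 9 members were higher without overlap and 5 passed with the trended variance. MSMO1, named SC4MOL on the array, oxidises methyl groups of the sterol ring and had the largest difference of this stretch. It read 2340, 1941 and 2141 in shASPP2 cells, against 771, 888 and 1137 in shNon cells, a log2 difference of 1.21 (SE 0.205, limma adjusted p = 0.124). The groups were apart, and its 3 features gave log2 differences of 1.20 to 1.24. NSDHL, which removes the oxidised carbon, had 2680, 3041 and 2933 in shASPP2 cells, against 1613, 1869 and 1343 in shNon cells. HSD17B7, which reduces the resulting ketone, had 614, 650 and 553 in shASPP2 cells, against 224, 277 and 349 in shNon cells. The enzymes that work together on these methyl groups were thus all separated between groups, with log2 differences of 0.85 for NSDHL and 1.12 for HSD17B7. The array may not tell HSD17B7 from its near-identical pseudogene, although its 3 features had differences of the same sign, from 1.00 to 1.33.

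CYP51A1, the demethylase that takes lanosterol as its substrate, averaged 2351 ± 295 in shASPP2 cells and 1309 ± 74.2 in shNon cells (SD, n = 3 each), a log2 difference of 0.84 without overlap. Neither enzyme that reduces its product had a positive difference. LBR, which is also an inner nuclear membrane protein, had 1436, 1428 and 1245 in shASPP2 cells, against 1450, 1475 and 1889 in shNon cells. LBR was thus lower on every shASPP2 array, by a narrow gap, with a log2 difference of -0.22 (95% interval -0.66 to 0.22). TM7SF2, the other reductase of this step, stood at 2.44 times the random-probe level in shASPP2 cells and 3.50 times it in shNon cells. Its groups overlapped, with 77.6, 60.3 and 86.5 in shASPP2 cells against 61.5, 110 and 171 in shNon cells.

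The last steps had smaller differences. EBP, which moves a double bond in the sterol ring, averaged 5635 ± 328 in shASPP2 cells and 4107 ± 246 in shNon cells (SD, n = 3 each), 0.46 on the log2 scale. SC5D, the desaturase that follows EBP, averaged 1109 ± 86.8 in shASPP2 cells and 894 ± 95.1 in shNon cells, 0.31 on the log2 scale. Both were apart between groups and passed neither fit. DHCR7, a reductase that completes cholesterol, had 1691, 2188 and 2163 in shASPP2 cells, against 1351, 1192 and 1329 in shNon cells, 0.63 on the log2 scale, and passed with the trended variance (limma adjusted p = 0.0268). A second DHCR7 feature differed by 1.14, so the size for this gene depends on the feature.

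**Figure D3:**
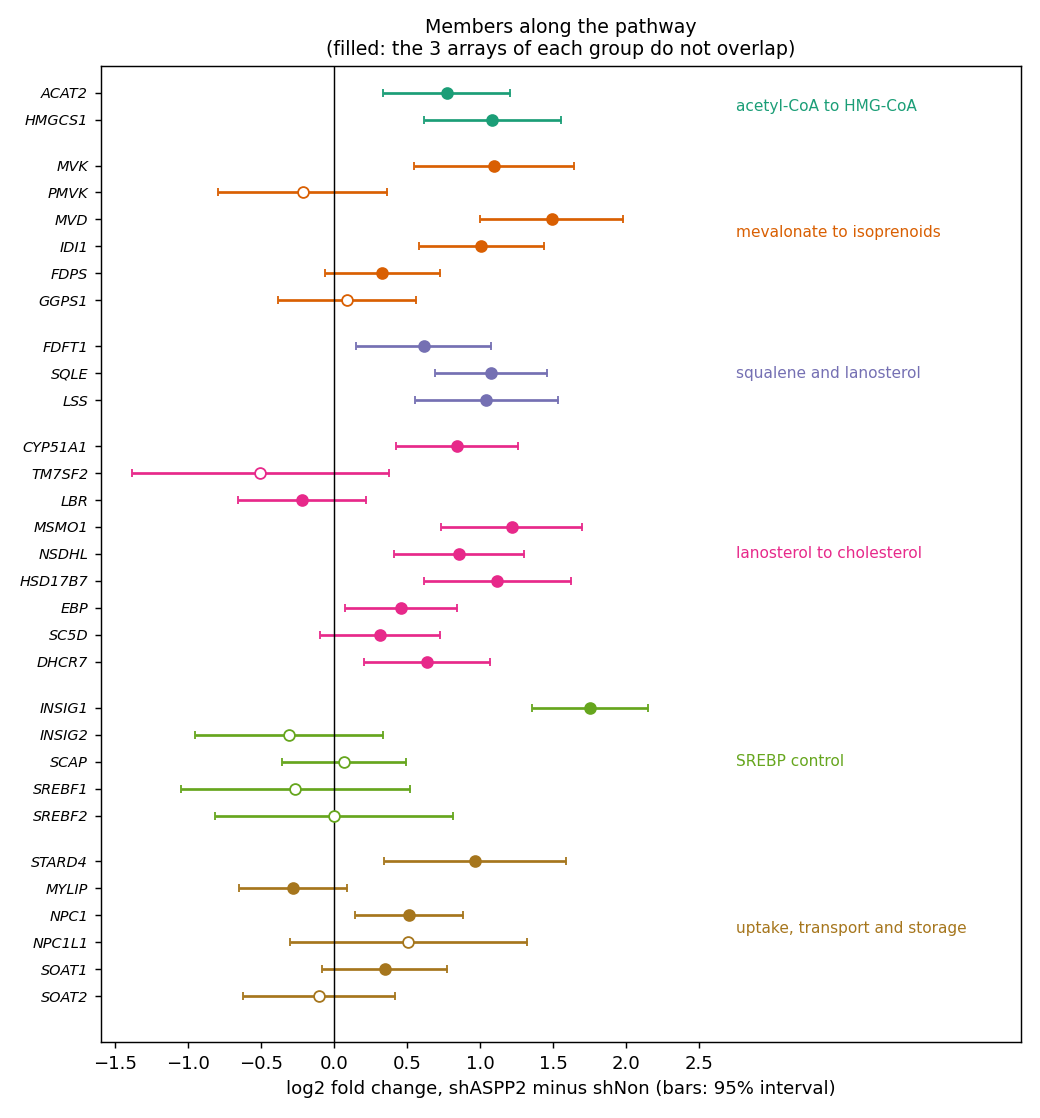
Log2 difference of each member, shASPP2 minus shNon, with its 95% interval from the limma fit (horizontal axis), in pathway order from acetyl-CoA at the top, and filled points where the groups do not overlap. Most synthesis enzymes lie to the right of 0, INSIG1 is farthest right at 1.75, and PMVK, LBR, TM7SF2, INSIG2, SREBF1, SREBF2, MYLIP and SOAT2 lie to the left, SREBF2 at -0.01.

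Counted over the chain, 16 of the 20 synthesis enzymes were higher without overlap, against 9.30% of all genes. LBR was lower without overlap, and PMVK, GGPS1 and TM7SF2 overlapped. The median log2 difference of the 20 was 0.80, and 13 passed as higher with the trended variance, against 0.996% of all genes. Of the 11 genes of control and transport, 4 were higher without overlap and 1 was lower, with a median of 0.07. The 1 lower gene is near the 9.52% of all genes that were lower without overlap. The step medians were 0.93 at the entry, 0.67 from mevalonate to isoprenoids, 1.04 at squalene and lanosterol, 0.63 from lanosterol to cholesterol, -0.01 in SREBP control and 0.43 in uptake, transport and storage. The difference between steps was not tested.

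Among the genes that move and store cholesterol, 0 passed the limma test adjusted over all genes, and NPC1 passed with the trended variance. NPC1, which exports cholesterol from lysosomes, had 8033, 7650 and 8216 in shASPP2 cells, against 5438, 5899 and 5421 in shNon cells. The groups were far apart relative to their spread, with a log2 difference of 0.51 (SE 0.157, limma adjusted p = 0.318, and 0.0189 with the trended variance). STARD4, a carrier that moves sterol between membranes, had 127, 150 and 102 in shASPP2 cells, against 45.9, 73.5 and 77.8 in shNon cells, 0.96 on the log2 scale (SE 0.265, limma adjusted p = 0.272, and 0.265 with the trended variance). The groups were apart, and a second feature near the random-probe level differed by -0.03. SOAT1, which stores cholesterol as esters, had 978, 791 and 985 in shASPP2 cells, against 772, 743 and 651 in shNon cells, 0.34 on the log2 scale and apart between groups.

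MYLIP was lower on all shASPP2 arrays. It encodes a ubiquitin ligase that marks lipoprotein receptors for breakdown and is induced by the sterol-sensing LXR receptors. Its intensities were 249, 246 and 243 in shASPP2 cells, against 310, 310 and 279 in shNon cells, a log2 difference of -0.28 (limma adjusted p = 0.541). A second MYLIP feature differed by -0.67, also with all shASPP2 arrays lower. NPC1L1, a cholesterol importer of gut and liver surfaces, overlapped between groups and differed by 0.51 (95% interval -0.30 to 1.32). SOAT2, the ester-forming enzyme of liver and gut, lay near the random-probe level in both groups, at 1.07 times it in shASPP2 cells and 1.08 times it in shNon cells, so no direction can be read for it.

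**Figure D4:**
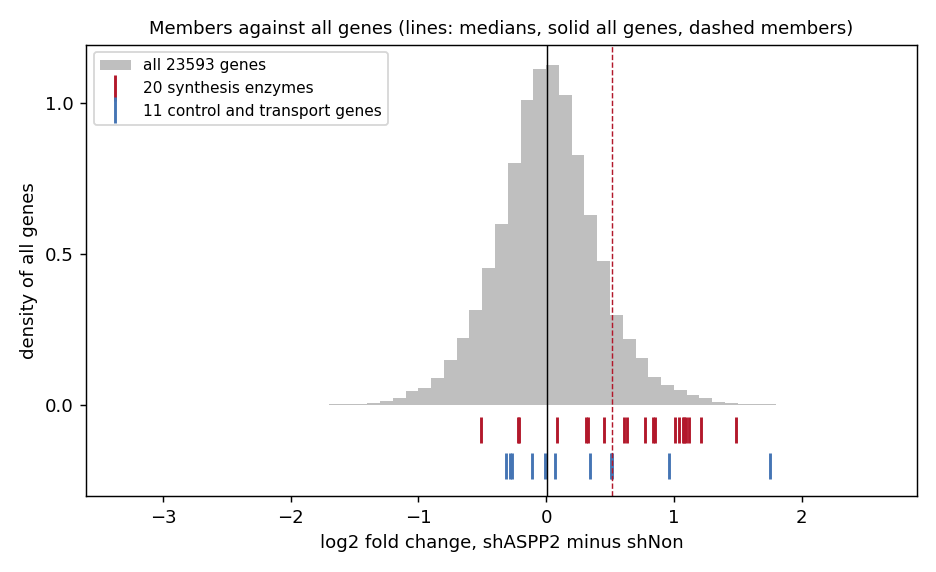
Distribution of the log2 difference, shASPP2 minus shNon, over all 23593 genes (vertical axis, density), with ticks below it for the 20 synthesis enzymes and the 11 genes of control and transport, a solid line at the median of all genes and a dashed line at that of the members. The members' median is 0.51 and that of all genes 0.01.

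Features that repeat a gene gave a check within the arrays. Of the 31 members, 16 had several features, and in 14 of these all features had the same sign, the exceptions being STARD4 and SOAT2. In 11 members every feature was higher without overlap, 27 features in all, while 4259 of the 45033 features on the array were higher in this way. How often the features of other genes share a sign was not counted. Features of 1 gene share the RNA of the same arrays and are not replicates.

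The sequence in front of the members was then searched for the boxes of factors known to act on this pathway. RefSeq start sites on GRCh38.p14 were found for 27 members, and windows from 250 bases before to 50 bases after each start were searched on both strands for CCAAT (NF-Y), TCACNCCAC (SREBP) and GGGCGG (SP1), with overlapping matches counted separately. At least 1 CCAAT was found for 20 of the 27 members, against 34.6% of 35116 promoters and 39.7% of 27305 genes, a gene with several windows being counted by its best one. At least 2 in 1 window were found for 12 of the 27, against 10.8% of promoters and 12.9% of genes. Of the 17 matched members that were higher without overlap 11 held at least 2, and of the 10 other matched members 1 did, MYLIP. For at least 1 CCAAT the counts were 15 of the 17 and 5 of the 10. The SREBP letters were found for 1 member, SREBF2, starting at position -133 from its start, against 1.13% of promoters and 1.39% of genes, so for 0 of the 17 and 1 of the 10. Only this string was searched for SREBP, so a gene without it is not shown to lack an SREBP site. At least 1 GGGCGG was found for 24 members, 16 of the 17 and 8 of the 10, against 45.0% of promoters and 48.3% of genes, and at least 2 for 15 members, 9 of the 17 and 6 of the 10, against 26.7% of promoters and 30.3% of genes. None of these splits was tested. The shares of promoters and genes were taken over all windows, expressed here or not, and were not matched for level. Of the 31 members, 28 lay above the median level of the array. These matches describe letters in a window, not bound sites, and the members were not chosen for them.

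The windows of INSIG1, MVD and MSMO1, which had the largest differences of the control genes, of the early enzymes and of the late enzymes, are printed with SREBF2, the member that holds the SREBP letters. All are 300 bases, 5′ to 3′ on the gene's strand, from RefSeq on GRCh38.p14. Capitals mark CCAAT or its reverse complement, and in SREBF2 also the SREBP match. The windows are chr7:155297628-155297927 on the plus strand for INSIG1, chr16:88663042-88663341 on the minus strand for MVD, chr4:165327419-165327718 on the plus strand for MSMO1 and chr22:41832855-41833154 on the plus strand for SREBF2.
INSIG1: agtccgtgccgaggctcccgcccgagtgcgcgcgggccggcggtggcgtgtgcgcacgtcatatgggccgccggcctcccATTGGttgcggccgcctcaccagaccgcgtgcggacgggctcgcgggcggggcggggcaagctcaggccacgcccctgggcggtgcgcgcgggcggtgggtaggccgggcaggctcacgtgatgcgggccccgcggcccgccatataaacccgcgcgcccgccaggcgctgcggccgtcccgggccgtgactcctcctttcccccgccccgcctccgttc
MVD: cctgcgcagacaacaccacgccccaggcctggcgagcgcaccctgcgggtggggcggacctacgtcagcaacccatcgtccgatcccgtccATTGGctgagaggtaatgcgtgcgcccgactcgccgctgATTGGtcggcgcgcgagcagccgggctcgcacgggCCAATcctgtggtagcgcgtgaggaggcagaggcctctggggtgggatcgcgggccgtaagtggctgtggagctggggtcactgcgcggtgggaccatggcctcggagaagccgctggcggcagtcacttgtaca
MSMO1: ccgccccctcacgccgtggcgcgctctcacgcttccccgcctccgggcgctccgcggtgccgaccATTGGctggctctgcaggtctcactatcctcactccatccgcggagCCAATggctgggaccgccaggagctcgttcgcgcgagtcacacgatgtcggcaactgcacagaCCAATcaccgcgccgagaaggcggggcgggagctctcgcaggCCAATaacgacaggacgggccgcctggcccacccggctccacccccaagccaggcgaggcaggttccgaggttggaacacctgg
SREBF2: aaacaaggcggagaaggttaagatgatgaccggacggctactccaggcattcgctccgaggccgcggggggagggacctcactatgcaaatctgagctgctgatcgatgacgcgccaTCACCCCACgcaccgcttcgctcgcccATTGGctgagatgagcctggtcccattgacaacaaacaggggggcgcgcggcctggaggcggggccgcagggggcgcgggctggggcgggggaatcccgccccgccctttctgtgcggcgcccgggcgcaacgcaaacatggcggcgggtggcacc
The INSIG1 window held 1 CCAAT, MVD 3, MSMO1 4 and SREBF2 1.

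Genes of neighbouring pathways were measured beside the members, and 0 genes of the 5 lists passed the limma test adjusted over all genes. These lists, too, were chosen with earlier results of these data known. The counts of genes without overlap are to be read against the 9.30% of all genes that were higher and the 9.52% that were lower in this way, and several are near those shares. Of 12 genes listed as targets of SREBP-1, most of them fatty acid genes, 5 were higher and 1 lower without overlap, with a median log2 difference of 0.29. FADS2 and FADS1, desaturases that make polyunsaturated fatty acids, differed by 1.01 (SE 0.202, limma adjusted p = 0.179) and 0.60 (SE 0.162, limma adjusted p = 0.267) and passed with the trended variance. Of 10 genes of SREBP processing and sterol-dependent degradation, 1 was higher and 1 lower without overlap, with a median of -0.02. MBTPS1, the Golgi protease that makes the first cut in SREBPs, differed by -0.40 (limma adjusted p = 0.413), and PGRMC1, a membrane haem protein, by 0.29 (limma adjusted p = 0.612).

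The other lists were lower or near 0 at their medians. Of 14 genes of sterol movement inside the cell, 1 was higher and 2 lower without overlap, with a median of -0.17. GRAMD1B, which carries cholesterol from the plasma membrane to the endoplasmic reticulum, differed by -1.14 (SE 0.222, limma adjusted p = 0.169, and 0.00689 with the trended variance), and SCP2, a lipid carrier, by -0.36. Of 9 LXR and oxysterol genes, 0 were higher and 2 lower without overlap, with a median of -0.23. These were ABCA1, which exports cholesterol from the cell, at -0.86 (limma adjusted p = 0.223), and NR1H3, which encodes an LXR receptor, at -0.55 (limma adjusted p = 0.369), and neither passed with the trended variance. Of 11 genes of the isoprenoid branches, 1 was higher and 0 lower without overlap, with a median of 0.04. PDSS2, which helps to build the ubiquinone tail, differed by 0.86 (limma adjusted p = 0.358), and RABGGTB, a subunit of the enzyme that prenylates Rab proteins, by -0.32.

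**Figure D5:**
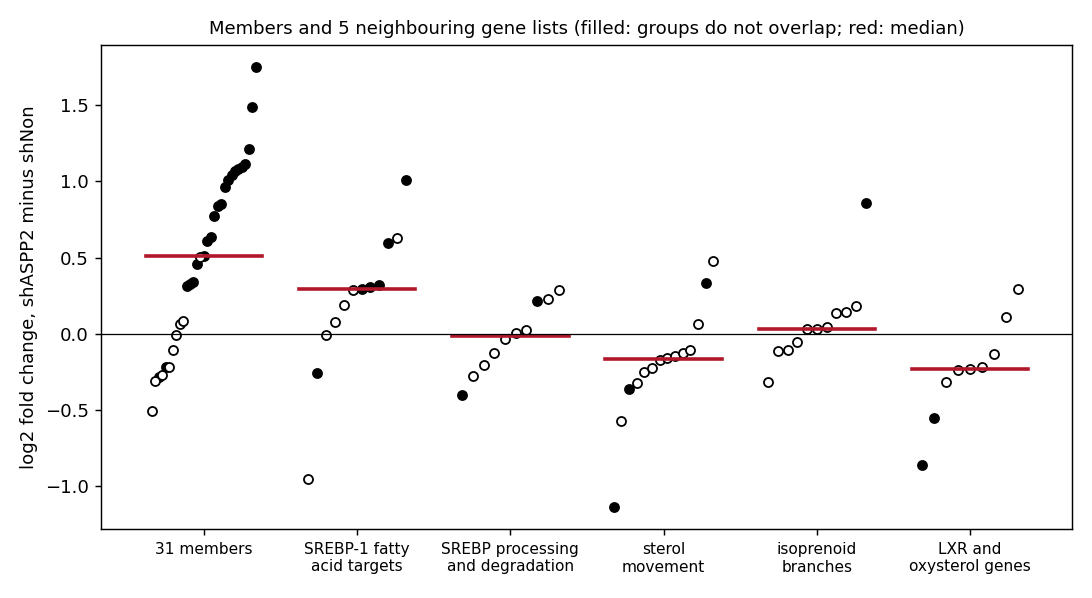
Log2 difference of each gene, shASPP2 minus shNon, in the 31 members and in 5 neighbouring lists (vertical axis), with filled points where the groups do not overlap and a red line at each list's median. The 31 members have a median of 0.51, and the lists of sterol movement and of LXR and oxysterol genes have medians below 0.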

How the data were processed

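The values the authors deposited are linear intensities, 1 for each feature of each array. Per the submitters' processing notes they come from RMA, for which the sources used here give no version or settings. RMA makes the arrays alike in their distribution, so a change in total RNA per cell is not seen. The files listed 45033 features, 45031 of them made from 3 probes each, and 1 row of 2508 random-sequence probes, used as the level of unspecific signal. The deposited value table had 0 cells that differed from the per-sample files.

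Gene names came from the array design and were updated through RefSeq's gene table by gene identifier (38916 features) or accession (78), 3954 kept the design's name and 2085 had none. Of 23593 genes, 11859 had several features, and the one with the highest mean log2 intensity over all 6 arrays stood for the gene.

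Intensities were taken as log2 and shASPP2 was compared with shNon in limma 3.58.1 (R 4.3.3), with Benjamini-Hochberg adjustment over all genes at 0.05 and no filter on low values. The fit was tested on simulated data whose changes were larger than the difference of any member, so that test does not cover differences of the members' size. Every member is given by pathway step. In each neighbouring list the genes past the threshold were to be named, or else those with the 2 smallest p-values. The members and lists were chosen with earlier results of these data known. Alternatives changed the normalization, the filter on dim genes, the variance model, the array weights, the replicate block and the choice of feature, and left out each array in turn. With 3 samples against 3, an exact permutation test cannot go below 0.1 (two-sided), so none is given. The sources used here give no batch, scan or slide for the arrays and do not say that a replicate number marks anything shared, and same-numbered arrays deviated from their group means with correlations of 0.08, -0.10 and -0.14. Coordinates are in hg18 as in the array files, and promoter windows are RefSeq's on GRCh38.p14.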

Additional observations from a re-analysis of the deposited data

How the results depend on the processing

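The 20 members that were higher without overlap had a positive log2 difference in each of the 16 alternatives that tested them (15 for STARD4). Only the changes of normalization and the mean of all features of a gene could have turned this sign. The other alternatives cannot do so once the groups do not overlap. The members' median stayed between 0.48 and 0.69. With array medians set equal, 19 of 31 members were higher without overlap, against 8.17% of all genes. Cyclic loess normalization and the mean of features also gave 19, against 8.97% and 10.4%. Without 1 array, 20 or 21 were, against 12.7% to 16.2% of all genes. Counts at the adjusted threshold moved with the variance and the set of genes tested. Against 24 genes and 1 member, leaving out genes below 2 times the random-probe level gave 130 of 13875 genes and 5 of 30 members. Leaving out genes below the median level gave 268 of 11796 genes and 11 of 28 members. The trended and robust variance gave 506 genes and 15 members, and the mean of all features of a gene 40 and 2. Testing each feature gave 62 features. With the replicate number as a block, 0 genes and 0 members passed by limma, and INSIG1 had a limma adjusted p of 0.347. In that fit 17 members had an unadjusted limma p under 0.05, against 2208 of all 23593 genes. Leaving out 1 array gave 0 to 6 genes and 0 to 0 members. At an unadjusted limma p under 0.05 there were then 15 to 19 members, against 1686 to 3106 of all 23593 genes. Over all alternatives the limma adjusted p of INSIG1 lay between 5.47e-06 and 0.347. SREBF2 turned to 0.068 with array weights and ranged from -0.30 to 0.36 without 1 array. SOAT2 turned to 0.050 with the mean of its features and ranged from -0.24 to 0.045 without 1 array, SCAP from -0.043 to 0.17, and GGPS1 from -0.083 to 0.18. The causes of these moves were not tested. No direction can be read for these 4 genes, and of them SOAT2 lies near the random-probe level.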
